A study of Mus musculus with 12 samples.

Results

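Hearts of newborn mice expressing a dominant-negative form of MCU (DN-MCU) were compared with hearts of wild-type (WT) littermates across all genes on the array. The comparison used the 6 neonatal arrays, 3 DN-MCU and 3 WT, of the 12 arrays in the series, and every one of the 45037 probe sets that is not an array control. Mice were of the CD1 strain, an outbred stock, the hearts were excised whole at 1 d of age, and the sex of the neonates is labelled unknown. The sources used here do not name the promoter that drives the transgene in the DN-MCU animals. From each heart 500 ng of total RNA was labelled and hybridized to Affymetrix 3′ expression arrays, and the values are log2 signals. The other 6 arrays, from male adults of the same 2 genotypes at 42 d, are used only where an adult value is set beside a neonatal one.

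MCU forms the pore of the mitochondrial calcium uniporter, the channel through which calcium crosses the inner mitochondrial membrane. A dominant-negative subunit assembles with the native one and blocks the pore. When mitochondria are disturbed, cells of the heart and of other tissues can phosphorylate the initiation factor eIF2, which slows protein synthesis in general while the transcription factor ATF4 is translated. ATF4 and its partners ATF5 and CHOP then raise genes of serine and asparagine synthesis, one-carbon folate metabolism, amino acid uptake and tRNA charging, a program known as the integrated stress response.

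The labelled tissue was borne out by its defining markers. The 12 cardiomyocyte markers averaged between 14.02 and 14.25 on each of the 6 arrays. Array medians lay between 3.24 and 3.32. Over all probe sets each array correlated with the others of its group at 0.9955 to 0.9965 on average. With the arrays of the other genotype the averages were almost the same, from 0.9951 to 0.9962. Replicates are labelled as biological, and values of 3 hearts are given below in the order of replicates 1, 2 and 3.

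The strongest single difference lay on one of the 2 probe sets for Mcu. Probe set 1442031_at read 2.90, 3.31 and 3.24 in the WT hearts and 8.73, 8.44 and 9.28 in the DN-MCU hearts. All 3 DN-MCU hearts were far above all 3 WT hearts, which read near the array median. The difference was 5.67 on the log2 scale (SE 0.24, 95% interval 5.05 to 6.29, n = 3 against 3). In the limma fit over all 45037 probe sets its Benjamini-Hochberg adjusted p was 0.0841, which missed the threshold of 0.05. The other probe set, 1453166_at, read 7.70, 8.18 and 7.97 in WT and 8.01, 8.03 and 7.91 in DN-MCU hearts. Those groups overlapped, with a difference of 0.04 (95% interval -0.29 to 0.36). Where on the transcript the probes of either set lie was not tested.

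No probe set passed the adjusted threshold in limma (0 of 45037, 0%), and the smallest adjusted p was that of Mcu. Unadjusted p-values were under 0.05 for 2564 probe sets (5.69%) and under 0.01 for 682 (1.51%). Mcu passed when dim probe sets were removed before the fit (adjusted p = 0.00308 over 22666 probe sets), a filter that it passed through the DN-MCU arrays alone. In what follows a gene is therefore described as higher or lower by its values, and genes are counted by whether the 3 DN-MCU arrays lay entirely above or below the 3 WT arrays. Of 18193 genes, each read on its brightest probe set, 1149 (6.32%) lay higher without overlap and 1050 (5.77%) lay lower. The exact permutation test of a single gene cannot give a two-sided p below 0.1 with 3 hearts against 3. In whole hearts, fewer cells of a type and less RNA per cell cannot be told apart.

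Genes of the integrated stress response stood highest. Of 224 measured members of 14 stress lists, 48 lay higher in DN-MCU hearts without overlap (21.4%, against 6.32% of all genes) and 10 lay lower (4.46%, against 5.77%). The median difference over the 224 members was 0.09, against -0.01 over all genes. A difference of at least 2-fold was less common still. Over all genes 23 were higher by that much (0.126%) and 44 were lower (0.242%). Requiring no overlap as well left 16 genes higher and 29 lower. Of the 16, 11 were in the stress lists, and of the 29 none (0) was. The lists and their members were chosen with earlier results of these data known, so these counts are a description.

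**Figure D1:**
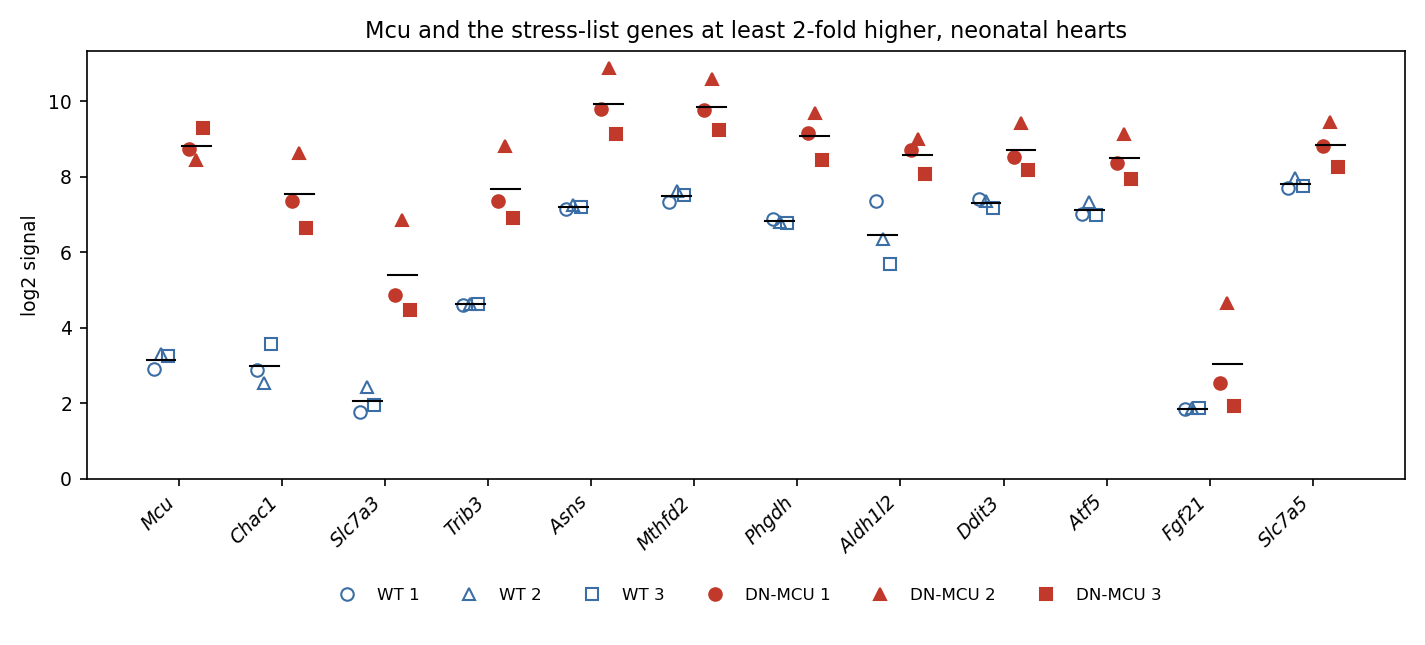
Log2 signal of Mcu (probe set 1442031_at) and of the 11 stress-list genes at least 2-fold higher without overlap, with 1 marker per heart (WT open, DN-MCU filled, marker shape giving the replicate) and a line at each group mean. In all 11 stress genes DN-MCU 2 is the highest heart and DN-MCU 3 the lowest of its group, while for Mcu DN-MCU 3 is the highest.

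Chac1, a glutathione-degrading enzyme and a late target of ATF4 and CHOP, read 2.87, 2.55 and 3.56 in WT and 7.37, 8.62 and 6.63 in DN-MCU hearts. Every DN-MCU heart was well above every WT heart, but the 3 DN-MCU hearts also spread widely among themselves. The measured difference was 4.55 (SE 0.57, limma adjusted p = 0.288). The WT mean of 2.99 lay below the median signal of every array, as did those of Slc7a3, Fgf21 and Mcu on 1442031_at, and no detection calls were used, so differences of these genes are measured values and may be lower bounds.

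Trib3, a pseudokinase induced by ATF4 and CHOP that restrains both, read 4.61, 4.62 and 4.63 in WT and 7.35, 8.80 and 6.90 in DN-MCU hearts. The WT hearts were nearly equal, and all of the spread lay on the DN-MCU side. The difference was 3.06 (SE 0.50, limma adjusted p = 0.404), and the other Trib3 probe set differed by 3.37. Ddit3, which encodes CHOP, read 7.40, 7.35 and 7.17 in WT and 8.52, 9.42 and 8.18 in DN-MCU hearts, a difference of 1.40 (SE 0.33). Its dimmer probe set, with signals near 3, differed by 0.01. Atf5, the ATF4-related factor tied to mitochondrial stress, read 7.01, 7.33 and 6.98 in WT and 8.37, 9.14 and 7.94 in DN-MCU hearts, a difference of 1.37 (SE 0.32). For both factors the WT and DN-MCU hearts did not overlap.

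Atf4 itself read 9.84, 9.83 and 9.78 in WT and 10.32, 11.10 and 10.12 in DN-MCU hearts, a difference of 0.69 (SE 0.26), and 1 of its 3 probe sets had the opposite sign. Smaller differences without overlap were seen for Stc2, a secreted stress glycoprotein (0.53), Sesn2, an inhibitor of mTORC1 (0.44), Eif2ak4, the kinase GCN2 that senses uncharged tRNA (0.43), and Eif4ebp1, a repressor of cap-dependent translation (0.26). In all, 9 of 23 measured regulators lay higher (39.1%, against 6.32% of all genes) and 0 lower, with a median difference of 0.38. Nupr1, a stress-induced transcriptional co-regulator, averaged 1.10 higher, but DN-MCU 3 read 6.26, below WT 2 at 6.33. Atf3, another stress-induced factor, overlapped as well, at 6.92, 6.24 and 6.22 against 6.13, 7.10 and 7.87. Ppp1r15a, the phosphatase subunit that ends eIF2 phosphorylation, differed by -0.01 (95% interval -0.22 to 0.21).

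The serine and one-carbon branch held 3 of the 11 genes. Phgdh, the first enzyme of serine synthesis from glucose, read 6.87, 6.81 and 6.78 in WT and 9.16, 9.68 and 8.43 in DN-MCU hearts. The difference was 2.27 (SE 0.32, limma adjusted p = 0.362), and a similar order was seen on 2 other probe sets (1.58 and 1.55). A further Phgdh probe set was erratic within both groups and differed by -0.87 with an SE of 1.88. Mthfd2, the mitochondrial enzyme of folate oxidation, read 7.32, 7.63 and 7.53 in WT and 9.75, 10.59 and 9.23 in DN-MCU hearts, a difference of 2.36 (SE 0.36, limma adjusted p = 0.374). Its other probe set differed by 2.38. Aldh1l2, the mitochondrial enzyme that makes NADPH from formyl-folate, read 7.37, 6.34 and 5.69 in WT and 8.70, 8.98 and 8.07 in DN-MCU hearts, a difference of 2.12 (SE 0.49). Here the WT hearts were spread too, with WT 1 the closest to the DN-MCU hearts.

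Psat1, the second enzyme of serine synthesis, behaved otherwise. It was already bright in WT hearts at 9.16, 9.32 and 9.24, and the DN-MCU hearts read 9.80, 9.71 and 9.74. The step was small but even, without overlap, at 0.51 (SE 0.05, unadjusted p = 0.000118, limma adjusted p = 0.256). Shmt2 and Shmt1, the mitochondrial and cytosolic serine hydroxymethyltransferases, lay higher by 0.40 and 0.35 without overlap, and Gcsh of the glycine cleavage system lay lower by 0.12. In all, 6 of 14 measured enzymes lay higher (42.9%, against 6.32% of all genes) and 1 lower (7.14%, against 5.77%). The list median was 0.33.

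Asns, which makes asparagine and is a classical marker of amino acid deprivation, read 7.14, 7.26 and 7.19 in WT and 9.79, 10.88 and 9.14 in DN-MCU hearts. The groups stood apart by 2.74 (SE 0.45, limma adjusted p = 0.398), and the second probe set by 2.89. Gpt2, the mitochondrial alanine aminotransferase, lay 0.85 higher and Cth, the enzyme that makes cysteine from cystathionine, 0.45 higher, both without overlap. Aldh18a1, the entry enzyme of proline synthesis, averaged 0.53 higher, but DN-MCU 3 read 10.02 and WT 2 read 10.03.

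Among amino acid transporters, 7 of 18 lay higher (38.9%, against 6.32% of all genes) and 0 lower. Slc7a3, a cationic amino acid carrier, was below the array median in WT hearts at 1.76, 2.43 and 1.95 and read 4.88, 6.85 and 4.46 in DN-MCU hearts, a difference of 3.35 (SE 0.67). Slc7a5, the light chain of the large neutral amino acid carrier, read 7.71, 7.97 and 7.76 against 8.81, 9.45 and 8.25, a difference of 1.02 (SE 0.31). Its heavy chain Slc3a2 lay 0.67 higher, Slc1a4, a carrier of alanine and serine, 0.62, Slc6a9, a glycine carrier, 0.51, and Slc38a1, a glutamine carrier, 0.20. Slc6a6, the taurine carrier, read 11.14, 11.43 and 11.29 against 11.80, 11.88 and 12.03, a difference of 0.62 (SE 0.10). Another bright probe set of Slc6a6 differed by 0.75, and 2 dim ones by -0.09 and -0.02. In Slc6a6 and Slc38a1 DN-MCU 3 was the highest heart, whereas in the other 5 it was DN-MCU 2.

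Enzymes that charge tRNA moved by small steps but broadly. Of 19 cytosolic aminoacyl-tRNA synthetases, 12 lay higher without overlap (63.2%, against 6.32% of all genes) and 0 lower. The list had a median of 0.39 and a maximum of 0.72. The largest were Aars for alanine (0.72), Cars for cysteine (0.68), Sars for serine (0.54) and Nars for asparagine (0.48). Cars, like Shmt2, Gpt2, Eif2ak4 and Slc6a9, also had 1 probe set of opposite sign. Of 16 mitochondrial synthetases, 4 lay higher without overlap (25%, against 6.32% of all genes), Pars2, Tars2, Yars2 and Cars2. The median over the list was 0.14. Chaperones and proteases of the mitochondrial matrix were close to WT in level, with 3 of 15 higher (20%, against 6.32% of all genes) and a median of 0.13. Lonp1, the matrix protease, read 9.82, 9.79 and 9.78 against 10.03, 10.20 and 10.01, a difference of 0.28 (SE 0.06). The chaperonin Hspd1 differed by -0.09 and the matrix Hsp70 Hspa9 by 0.08, both with overlap.

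Fgf21, a hormone that stressed muscle releases, read 1.84, 1.87 and 1.87 in WT and 2.54, 4.66 and 1.92 in DN-MCU hearts. DN-MCU 2 was clearly above the WT hearts, DN-MCU 1 less so, and DN-MCU 3 was barely above them. The mean difference of 1.18 had an SE of 0.73.

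Other stress lists held few higher genes. In the unfolded protein response of the endoplasmic reticulum, 1 of 22 genes lay higher and 1 lower. Each share was 4.55%, against 6.32% and 5.77% of all genes, and the response had a median of 0.00. Hspa5, its main chaperone, differed by 0.01 (95% interval -0.18 to 0.19), and Xbp1, the factor activated by IRE1 splicing, by 0.01 (95% interval -0.16 to 0.19). None (0 of 15) of the antioxidant genes driven by NRF2 separated the groups, and the list's median was -0.05. Cytosolic heat shock genes had 0 higher and 1 lower of 13 (7.69%, against 5.77% of all genes). Genes of p53 and cell death had 0 higher and 1 lower of 16 (6.25%). Immediate early genes, which answer growth factor and mechanical signals, were lower in part, with 1 higher and 5 lower of 26 (19.2%, against 5.77% of all genes) and a median of -0.16. Fos, the best known of them, read 8.72, 8.70 and 9.29 in WT and 7.77, 8.27 and 7.73 in DN-MCU hearts, a difference of -0.98 (SE 0.23, limma adjusted p = 0.61).

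The 3 DN-MCU hearts took the same order in most of the stress genes that lay higher. Of the 48 stress genes that lay higher, DN-MCU 2 was the highest heart in 41 (85.4%), against 585 of the 1149 genes of all kinds (50.9%). The full order DN-MCU 2, DN-MCU 1, DN-MCU 3 held in 32 of the 48 (66.7%), against 300 of the 1149 (26.1%). For the 48 genes the median SD between hearts was 0.252 in the DN-MCU group and 0.114 in the WT group, while over all probe sets the medians were 0.059 and 0.06. On 1442031_at, the probe set of Mcu that separates the genotypes, the order was DN-MCU 3, DN-MCU 1, DN-MCU 2. The level of that probe set and the level of the stress genes thus ran in opposite orders over these 3 hearts, too few for a test. The order DN-MCU 2, DN-MCU 1, DN-MCU 3 was also that of Sln, Kcnj3, Mybphl, Myl7, Nppa and Fgf12, genes of the atria or lower in mean that are described further on, and their part in the order of the stress genes was not tested.

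Sex was mixed within the groups and unequal between them, with Xist signal in WT 3, DN-MCU 2 and DN-MCU 3. Xist, the transcript of the inactive X chromosome, read 2.84, 2.78 and 10.5 in WT and 2.81, 10.02 and 10.14 in DN-MCU hearts, and Eif2s3y, on the Y chromosome, was high in the other 3 hearts (10.09, 10.75 and 3.49 against 10.73, 3.35 and 3.47). In 32 of the 48 stress genes that lay higher, DN-MCU 1, with Y-linked signal, lay between DN-MCU 2 and DN-MCU 3, both with Xist signal. In others it did not, being the highest of its group for Psat1 and the lowest for Slc6a6. Sex and genotype are thus partly tied in these hearts. A fit with the Xist signal as a covariate, added after the data were seen, gave a stress-list median of 0.08 and called 0 probe sets. Without the covariate the median was 0.09, also with 0 calls. A count of 0 in both fits cannot show what the covariate changed, and the part of sex in the differences was not tested.

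**Figure D2:**
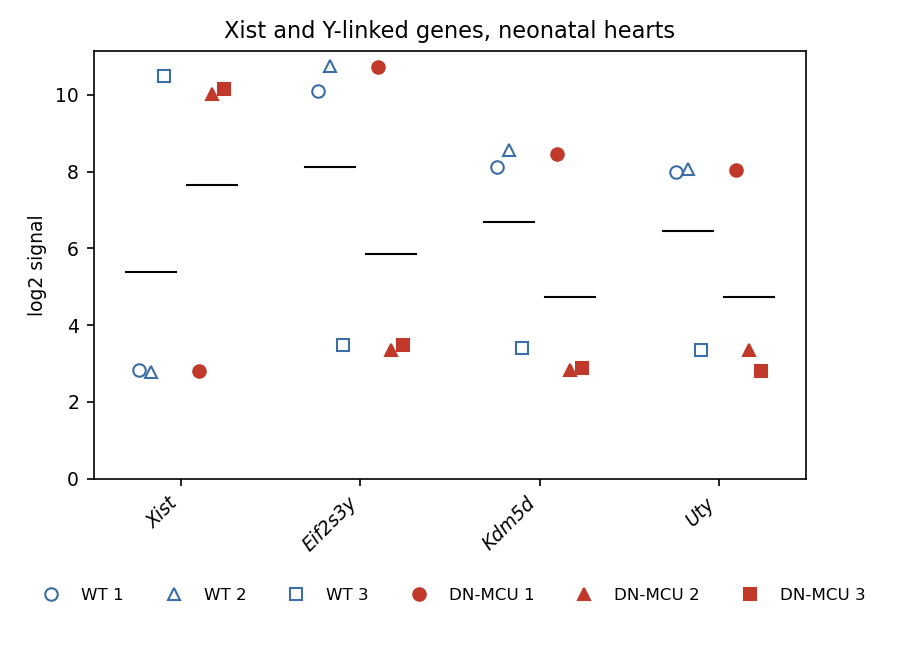
Log2 signal of Xist and 3 Y-linked genes in each neonatal heart (WT open, DN-MCU filled, marker shape giving the replicate) with a line at each group mean. WT 3, DN-MCU 2 and DN-MCU 3 carry the Xist signal, and the Y-linked genes are high in the other 3 hearts.

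The motif through which ATF4 and its C/EBP partners act, the amino acid response element, has the core TGATGNAA. It was searched on both strands in the promoters of RefSeq (build GRCm38.p6), which run from 250 bases before to 50 bases after each gene's start. Of the 48 stress genes that lay higher, 34 had an entry and 11 of these held the core (32.4%). Of the 176 other stress genes, 148 had an entry and 7 held it (4.73%), and of all genes with a RefSeq promoter 1219 of 27025 did (4.51%). Genes of the array with an entry held it in 3.24%. The 11 were Chac1, Trib3, Asns, Fgf21, Herpud1, Slc1a4 and the synthetases Aars, Gars, Iars, Tars and Yars. Mthfd2, Phgdh, Psat1, Ddit3 and Atf5 had no such letters in this window. The core began 193 bases before the start in Chac1, 139 before it in Fgf21, 23 before it in Asns and 112 before it in Aars, and in Trib3 it lay after the start, at base 15. Upstream stretches of Chac1, Asns and Fgf21 are shown because these are stress genes at least 2-fold higher that hold the core before their start (in capitals, here on either strand), each written 5′ to 3′ on the strand of its gene. The Chac1 stretch is chr2:119350992-119351116 on the plus strand, that of Asns is chr6:7693210-7693292 on the minus strand, and that of Fgf21 is chr7:45615562-45615689 on the minus strand.
Chac1: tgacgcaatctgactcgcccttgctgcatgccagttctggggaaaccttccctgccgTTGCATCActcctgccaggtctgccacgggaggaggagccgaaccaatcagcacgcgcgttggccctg
Asns: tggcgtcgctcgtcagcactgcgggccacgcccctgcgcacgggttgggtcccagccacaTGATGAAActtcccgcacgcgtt
Fgf21: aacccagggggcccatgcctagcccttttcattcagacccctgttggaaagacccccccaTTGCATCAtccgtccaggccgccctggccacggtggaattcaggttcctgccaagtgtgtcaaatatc
Chac1 and Fgf21 hold the core with the same letters in the same orientation. A match of letters is a description of the sequence, and binding was not measured.

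The mitochondrial and metabolic lists were close to WT in level. Subunits of complex I had a median difference of 0.02, with 2 of 34 higher and 0 lower, and subunits of complexes II to V a median of 0.02, with 1 higher and 1 lower of 42. Fatty acid uptake and oxidation had 5 higher (13.2%, against 6.32% of all genes) and 1 lower of 38, with a median of 0.03. Among the 5 were Ehhadh, the peroxisomal bifunctional enzyme (0.41), Plin2, which coats lipid droplets (0.29), Cpt1a, the carnitine gate of fatty acid entry (0.27), and Pdk4, which restrains glucose oxidation, at 12.59, 12.53 and 12.51 against 12.77, 12.68 and 12.83 (0.22, SE 0.05). Glycolysis and glucose uptake had 7 of 29 higher (24.1%, against 6.32% of all genes) and 0 lower, with a median of 0.07. In 6 of the 7 DN-MCU 2 was the highest heart, as in 50.9% of the genes of all kinds that lay higher. The largest of the 7 were Eno2, the neuronal enolase (0.52), Slc2a1, the fetal glucose transporter (0.31), and Gbe1, the glycogen branching enzyme (0.30). Ppargc1a, the coactivator of mitochondrial biogenesis, differed by 0.10 with overlap.

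Partners of MCU in the uniporter differed little. Smdt1, the EMRE subunit, differed by 0.03 and Micu3, a calcium-sensing regulator, by 0.17, both with overlap. Micu2, a gatekeeper of the pore, spread widely in both groups, at 8.11, 9.44 and 10.28 against 8.26, 10.02 and 9.42. Slc8b1, the exchanger that lets calcium out of mitochondria, read 4.55, 4.84 and 4.79 against 4.34, 4.42 and 4.39, a difference of -0.34 (SE 0.08), and the regulator Mcur1 lay 0.16 higher on its brighter probe set. Of 19 measured genes of mitochondrial calcium transport, 1 lay higher and 1 lower, shares of 5.26% each.

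**Figure D3:**
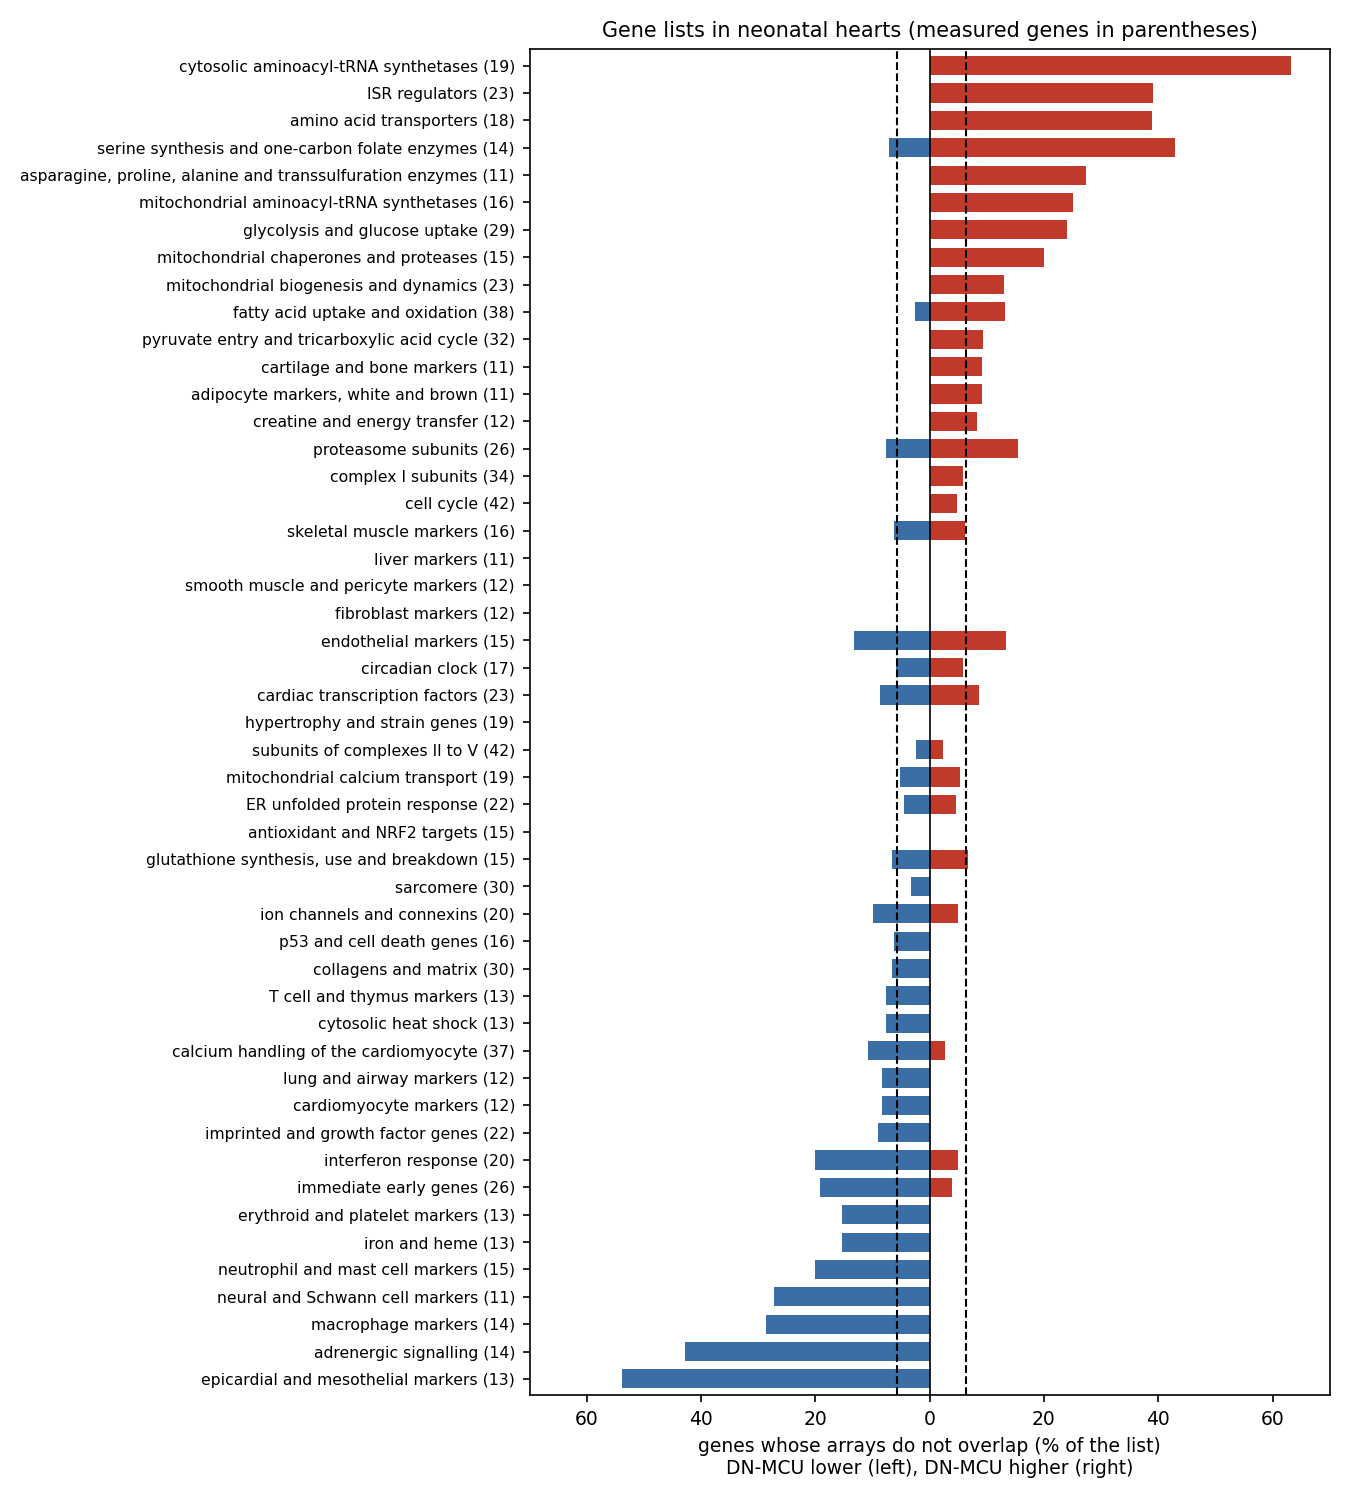
Share of each gene list's measured genes (number in parentheses) whose 3 DN-MCU arrays all lie above (right) or all lie below (left) the 3 WT arrays, for the lists of 10 or more measured genes. Dashed lines mark the shares over all genes, 6.32% higher and 5.77% lower. Cytosolic aminoacyl-tRNA synthetases (63.2%) stand farthest to the right and epicardial and mesothelial markers (53.8%) farthest to the left.

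Few genes of contraction and strain separated the groups. Of 30 sarcomere genes 0 lay higher and 1 lower (3.33%, against 5.77% of all genes). Differences ran from -1.40 (Mybphl, with overlap) to 0.14. Of 19 hypertrophy and strain genes 0 lay higher and 0 lower, with a median of -0.01. Nppb, a natriuretic peptide of strained muscle, read 13.08, 13.01 and 13.23 against 12.23, 13.46 and 13.53, and the slow myosin Myh7 differed by 0.09 and the calcium pump Atp2a2 by -0.04, all with overlap. Calcium handling genes had 1 higher and 4 lower of 37 (10.8%, against 5.77% of all genes), the lowest being Sln at -1.69. Hrc, a calcium-binding protein of the sarcoplasmic reticulum, read 10.12, 10.25 and 10.22 against 9.87, 9.96 and 9.87, a difference of -0.30 (SE 0.05). Casq1, the calsequestrin of skeletal muscle, lay 0.44 higher.

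Adrenergic signalling stood out among the lists of lower genes, with 6 of 14 lower without overlap (42.9%, against 5.77% of all genes) and 0 higher. The list median was only -0.08, and 5 of the 14 had a difference above 0. Pkia, the inhibitor of protein kinase A, read 11.11, 11.05 and 11.12 in WT and 10.81, 10.68 and 10.70 in DN-MCU hearts, a small and even step of -0.36 (SE 0.04, unadjusted p = 0.000328, limma adjusted p = 0.279). Maob, which breaks down monoamines, differed by -0.44, the receptor Adra1b by -0.38, the phosphodiesterase Pde4d by -0.21 and the catalytic subunit Prkaca by -0.13. Pde3a, the last of the 6, was near background on all arrays (2.55 to 2.59).

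Several genes typical of the atria, named after their values were seen and belonging to no list of their own, had lower means, and 4 of the 6 described here overlapped between the groups. The 6 were picked from a longer set. Myl4, Kcnj5 and Gja5 were also looked at and are not described, so the 6 give no share of atrial genes. Sln, the atrial inhibitor of the calcium pump, read 12.77, 13.36 and 12.72 in WT and 11.37, 12.24 and 10.17 in DN-MCU hearts, a difference of -1.69 (SE 0.55, limma adjusted p = 0.793). Kcnj3, a subunit of the atrial potassium channel opened by acetylcholine, read 7.70, 8.20 and 7.82 against 6.85, 7.57 and 6.5, a difference of -0.93. Both separated the groups, with DN-MCU 3 the lowest heart. Mybphl, an atrial myosin-binding protein (8.82, 9.28 and 8.95 against 7.77, 8.89 and 6.19), and Myl7, the atrial light chain (14.59, 14.96 and 14.70 against 14.19, 14.65 and 13.60), followed the same order but overlapped, with DN-MCU 2 within the WT range. Nppa, the atrial natriuretic peptide, overlapped too, at 14.49, 14.54 and 14.47 against 14.24, 14.58 and 13.94. Fgf12, a modulator of sodium channels, read 8.38, 8.77 and 8.98 against 6.82, 8.55 and 5.48 on the probe set picked for the plot. Again DN-MCU 2 was within the WT range and DN-MCU 3 lowest. How much atrial tissue each excised heart held was not tested.

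Markers of the covering layer of the heart had the lowest list median apart from that of the sex-linked genes. Of 13 epicardial and mesothelial markers, 7 lay lower without overlap (53.8%, against 5.77% of all genes) and 0 higher, with a median of -0.75. The list averaged 7.26, 8.02 and 7.33 in WT and 6.96, 7.08 and 6.82 in DN-MCU hearts, so that WT 2 stood above the other 5 hearts. Upk3b, a uroplakin of mesothelium, read 9.65, 10.32 and 9.42 against 8.79, 8.72 and 7.95, a difference of -1.31 (SE 0.33). Upk1b differed by -1.02, mesothelin (Msln) by -0.85 and keratin Krt19 by -0.75. WT 2 was the highest heart for each of these 4 genes.

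Blood and immune genes were lower in several lists. Of 14 macrophage markers, 4 lay lower without overlap (28.6%, against 5.77% of all genes) and 0 higher. Among them was the receptor Csf1r (9.22, 9.19 and 8.90 against 8.86, 8.89 and 8.25), where DN-MCU 2 lay just below WT 3. Of 15 neutrophil and mast cell markers 3 lay lower (20%), and of 13 erythroid and platelet markers 2 (15.4%), with 0 higher in both lists. T cell markers had 1 lower of 13 (7.69%), and B cell markers 1 lower and 1 higher of 9 (11.1% each). Only 9 of the 15 neutrophil and mast cell markers passed the filter on dim probe sets. So did 5 of the 13 erythroid and platelet, 1 of the 13 T cell and 2 of the 9 B cell markers. Elane and Mcpt4, both among the lower neutrophil and mast cell markers, failed such a filter on the 12 arrays. Of 20 interferon response genes, 4 lay lower (20%) and 1 higher (5%). Rsad2, an antiviral enzyme, read 7.78, 8.80 and 7.57 against 6.87, 6.74 and 6.96, a difference of -1.19 (SE 0.34). The mast cell protease Cma1 read 4.55, 6.12 and 4.73 against 3.97, 3.36 and 3.82, and the erythroid enzyme Alas2 read 9.67, 9.93 and 8.95 against 8.02, 8.24 and 8.68. In these 3 genes WT 2 was again the highest heart. In WT 2 the 23 stress regulators averaged 7.59, beside 7.53 and 7.46 in the other WT hearts. These values compare WT hearts only. The part of the cell-type lists in the results for the stress genes was not tested.

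**Figure D4:**
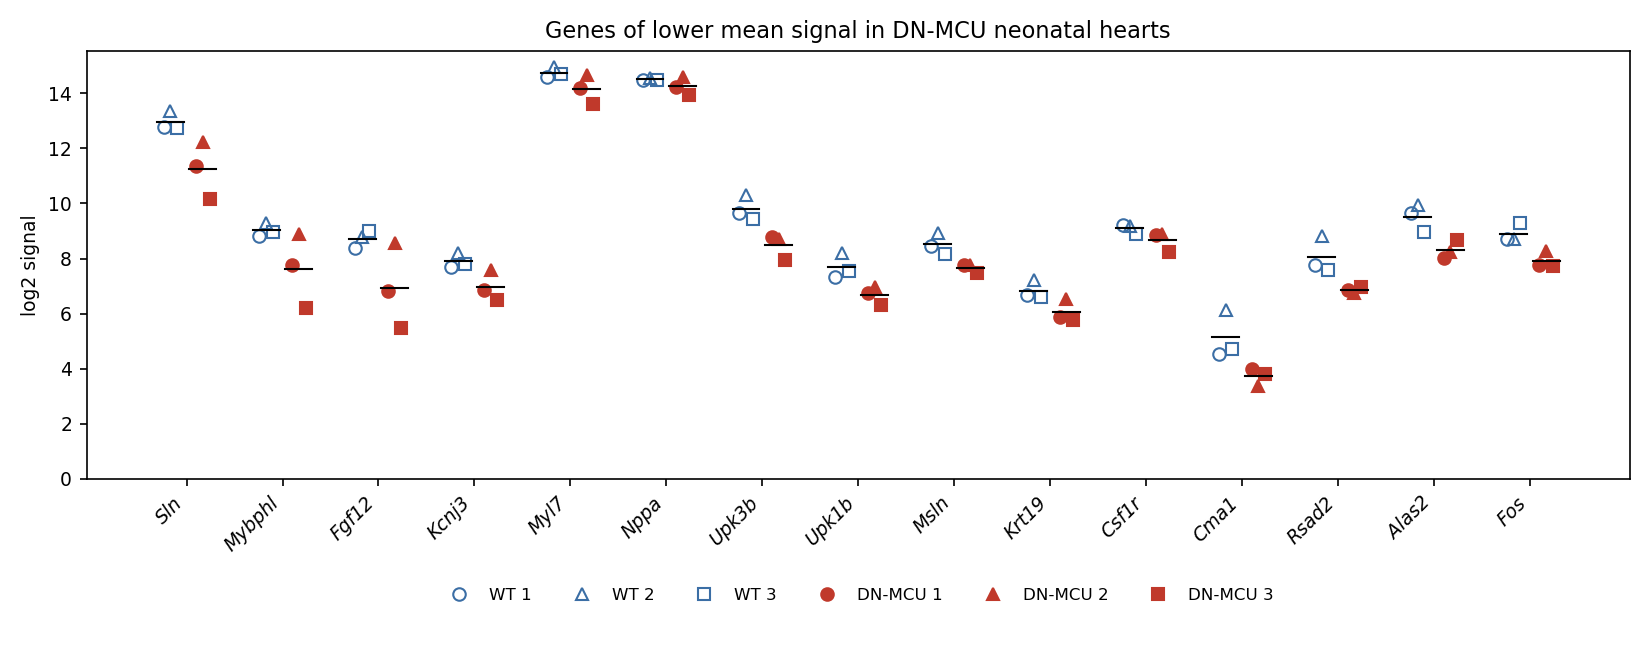
Log2 signal in each neonatal heart (WT open, DN-MCU filled, marker shape giving the replicate, lines at group means) for genes typical of atria and Fgf12 (Sln to Nppa), of mesothelium (Upk3b to Krt19), of blood and immune cells (Csf1r to Alas2) and Fos. DN-MCU 3 is the lowest heart for the atrial and mesothelial genes, and WT 2 the highest for the mesothelial genes, Cma1, Rsad2 and Alas2.

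Markers of the other resident cells moved little or in both directions. Of 15 endothelial markers 2 lay higher, Pecam1 (0.22) and Robo4 (0.28), and 2 lower, Tie1 (-0.32) and Tek (-0.20). Each share was 13.3%, against 6.32% of all genes higher and 5.77% lower. None (0) of 12 fibroblast and none (0) of 12 smooth muscle and pericyte markers separated the groups. Cell cycle genes had 2 higher (4.76%, against 6.32% of all genes) and 0 lower of 42, with a median of 0.11. Liver, lung, T cell and B cell markers averaged between 2.49 and 3.09 on every array, below the array medians.

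The genes with the smallest unadjusted p-values were mostly other genes, with small and even differences. Irx5 and Irx2, homeobox genes of the Iroquois family, read 8.60, 8.71 and 8.62 against 9.16, 9.18 and 9.21, and 6.45, 6.48 and 6.45 against 7.31, 7.07 and 7.31, differences of 0.54 and 0.77. Irx3, of the same family and on the list of cardiac factors, lay 0.50 higher without overlap, and Nkx2-5, the cardiac homeobox factor, 0.32 lower. Lower genes of this kind were Rxfp1, the relaxin receptor, at 3.67, 3.80 and 3.76 against 3.07, 3.09 and 3.09 (-0.66), Klhl2, a ubiquitin ligase adaptor (-0.89), and Slc25a39, the mitochondrial glutathione carrier (-0.52). Adjusted p-values in the limma fit lay between 0.109 and 0.498 for these genes and 0.506 for Nkx2-5.

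One of 9 probe sets of H2-D1, a class I histocompatibility gene, read 6.88, 6.57 and 7.02 in WT and 8.68, 8.67 and 8.68 in DN-MCU hearts, a difference of 1.85 (SE 0.12, limma adjusted p = 0.109 over all probe sets and 0.0427 with dim probe sets removed). Of its other probe sets 5 had the opposite sign. Genes of this family are near-identical and differ between haplotypes, so which allele or gene that probe set reads was not tested.

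The adult hearts, whose arrays are separate from these, show how the neonatal differences stood beside later ones. In the adult fit 74 of 45037 probe sets passed (0.164%). Of the 48 stress genes that lay higher in neonates, 45 had an adult difference above 0 and 35 lay higher without overlap in adults (72.9%), against 36 of the 166 stress genes whose neonatal groups overlapped (21.7%) and 7.16% of all genes. The neonatal difference was the smaller one in 37 of the 48. The fit of 12 arrays tested the gap itself: the DN-MCU effect differed between ages for 146 probe sets (0.324%), 41 with a higher (0.091%) and 105 with a lower (0.233%) neonatal effect. With the replicate number as a block within each age the count was 34, and leaving out DN-MCU adult 3 raised it to 586.

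Mthfd2 differed by 2.36 in neonates and 7.20 in adults, a gap of -4.84 (limma adjusted p = 0.0062, and 0.0406 with the block). The WT level was also unlike at the 2 ages, between 7.32 and 7.63 in neonates and between 4.16 and 4.99 in adults, while DN-MCU hearts read 9.23 to 10.59 and 11.33 to 12.03. Slc7a5 had a gap of -5.01 (limma adjusted p = 0.0062, and 0.0337 with the block) and the same form, with WT levels of 7.71 to 7.97 in neonates and 3.28 to 4.24 in adults. Psat1 had a gap of -3.25 (limma adjusted p = 0.00373, and 0.034 with the block), with WT levels of 9.16 to 9.32 and 4.74 to 5.34. In neonates these 3 genes were thus nearer in WT to the level that DN-MCU adults reached.

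Fgf21 was another kind. Its WT level was 1.84 to 1.87 in neonates and 1.81 to 1.92 in adults, and DN-MCU hearts read 1.92 to 4.66 in neonates and 7.81 to 8.55 in adults. The gap was -5.03 (limma adjusted p = 0.0488, and 0.172 with the block, which ends the call), and it was under 0.05 in 3 of the 12 fits that left out 1 array, ranging from 0.00103 without DN-MCU neonate 2 to 0.147 without WT neonate 3. Ppp1r15a (-0.01 in neonates, 1.0 in adults) and Ckmt1, a mitochondrial creatine kinase (0.07 and 4.20), had no neonatal difference past the spread, and their gaps were -1.0 (limma adjusted p = 0.00736, and 0.137 with the block) and -4.13 (0.000616 and 0.0412).

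For Chac1 no gap was detected, with measured differences of 4.55 in neonates and 4.17 in adults (gap 0.38, SE 0.80, limma adjusted p = 1), but the dim neonatal WT signal leaves the size of that gap unsettled. Its level was lower at both genotypes in neonates, at 2.55 to 3.56 in WT and 6.63 to 8.62 in DN-MCU hearts, against 5.44 to 7.0 and 10.33 to 11.03 in adults. Slc7a3 had a gap of -1.18 (SE 0.75), and Ddit3 of -0.68 (SE 0.44), and neither gap passed the test.

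**Figure D5:**
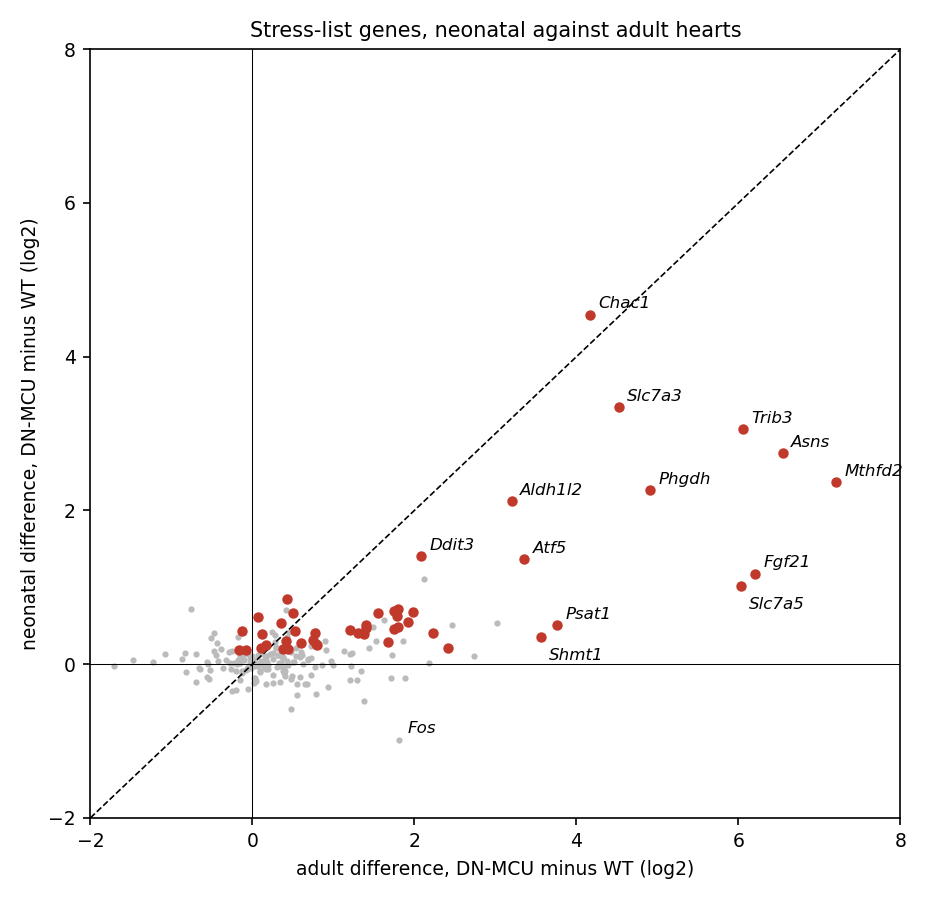
Log2 difference, DN-MCU minus WT, in neonatal hearts (vertical) against adult hearts (horizontal) for the 224 measured stress-list genes, with the dashed line at equal differences. Filled large points are the 48 genes higher without overlap in neonates; 37 of them lie below the line and Chac1 lies just above it.

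A few genes outside the stress program had differences of opposite sign at the 2 ages. Ehhadh lay 0.41 higher in neonates and differed by -1.10 in adults, and Casq1 lay 0.44 higher and differed by -2.38. Their gaps of 1.5 (SE 0.28, limma adjusted p = 0.0772) and 2.82 (SE 0.79, adjusted p = 0.311) did not pass. Slc25a39 was -0.52 in neonates and 0.92 in adults, a gap of -1.44 (limma adjusted p = 0.018, and 0.0415 with the block), but it was under 0.05 in 7 of the 12 fits that left out 1 array, with a highest value of 0.066. Myl1, a skeletal muscle light chain, was -1.02 in neonates and 1.03 in adults, without overlap at both ages. Its gap was -2.05 (limma adjusted p = 0.0305), and the checks with the block and with 1 array left out do not cover it.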

How the data were processed

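The values used are log2 signals deposited by the authors as 1 table for all 12 arrays; that the scale is log2 and already normalized between arrays was read from the values, and no source used here states the method. The submitters' processing notes list Partek without saying for which step. The 64 control probe sets were left out of 45101. Of the rest, 34945 carry 1 gene symbol, 932 several and 9160 none, and 34741 gene IDs were found in the RefSeq table (0 symbols changed).

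Neonatal groups, 3 arrays each, were compared by lmFit and eBayes of limma 3.58.1 (R 4.3.3), with Benjamini-Hochberg adjustment over all 45037 probe sets and a threshold of 0.05. The adult arrays were fitted alone in the same way, and the difference of the effects on all 12 arrays. In lists each gene is read on its brightest probe set, by the mean of the 6 neonatal arrays. The fit was tested on simulated data.

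The members, lists, tests and alternatives were chosen with earlier results of these data known. Named genes are, by rule, called probe sets, then up to 12 per direction with the smallest p whose groups do not overlap, stress-list members without overlap at an unadjusted p under 0.01, a fixed set of calcium, strain and sex-linked genes, and up to 3 genes of each other list. Other list members without overlap, the gap genes and Fgf12, Gm15934, Bves, Tnni3k and further atrial genes were named after their values were seen. Same-numbered neonatal arrays of the 2 genotypes deviated together (correlations 0.128, 0.219 and 0.27), which counts as pairing here; what a number stands for is not stated in the labels. With 3 arrays per group the number of arrays limits the precision, and the p-values measure the spread between hearts labelled as biological replicates. Alternatives covered filters on dim probe sets, further normalization, variance moderation, array weights, all 12 arrays in 1 fit, the replicate block, cross-matching probe sets, each array left out and an Xist covariate.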

Additional observations from a re-analysis of the deposited data

Results flagged for a closer look

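The DN-MCU effect differed between neonatal and adult hearts by the test of the difference itself (limma on all 12 arrays, adjusted over 45037 probe sets) for 22 of the genes described from the lists and the naming rule. Myl1, described outside them, passed that limma test as well (gap -2.05, adjusted p = 0.0305) and is not among the 22. The checks with the block and with arrays left out cover the 22 only. A negative gap means that the neonatal difference was the lower one. Gaps of stress genes were -5.03 for Fgf21, -5.01 for Slc7a5, -4.84 for Mthfd2, -3.81 for Asns, -3.25 for Psat1 and -3.21 for Shmt1. Smaller ones were -2.21 for Slc38a1, -1.95 for Myc, -1.82 for Gars, -1.43 for Ern1, -1.39 for Lonp1 and -1.0 for Ppp1r15a. Nqo1, an antioxidant enzyme, had a gap of 1.22, since it differed by 0.14 in neonates and by -1.08 in adults.

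Outside the stress lists the gap was -4.13 for Ckmt1, -2.16 for Tgfb2, a growth factor (-0.08 in neonates and 2.08 in adults), -1.44 for Slc25a39, -1.36 for Gyg, which primes glycogen, and -1.02 for Pgam1, a glycolytic enzyme. It was 3.12 for Scn4b, a sodium channel subunit (0.03 and -3.09), 1.15 for Cep72, a centrosomal protein (1.04 and -0.11), 0.72 for Tef, a clock-controlled factor, and 0.39 for Sdhd, a subunit of complex II (0.03 and -0.36). The value for Tef rests on 1 of its 3 probe sets, the other 2 having the opposite neonatal sign, and its adjusted p stayed under 0.05 in 4 of 12 fits that left out 1 array. With the replicate block the adjusted p was under 0.05 for 7 of the 22, Psat1 (0.034), Slc7a5 (0.0337), Scn4b (0.0337), Myc (0.0391), Mthfd2 (0.0406), Ckmt1 (0.0412) and Slc25a39 (0.0415). Leaving out each of the 12 arrays in turn kept the adjusted p under 0.05 every time for 9 of the 22, Psat1, Cep72, Mthfd2, Slc7a5, Slc38a1, Ppp1r15a, Gyg, Ckmt1 and Tgfb2.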

How the results depend on the processing

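The neonatal count of 0 called probe sets became 2 with either filter on dim probe sets (Mcu and H2-D1), 1 with an intensity trend (Mcu) and 3 when all 12 arrays were fitted (Mcu, Cep72 and 1 probe set with no gene name). Leaving out 1 array gave 0 to 1, the 1 being a lower probe set with no single gene name when WT 3 was left out. Array weights gave 1244 calls, 27 of them stress genes. Those weights were 5.43 for WT 3 and 4.27 for DN-MCU 1 and 0.371 to 0.554 for the other 4 arrays, so that fit gives most weight to 1 heart of each genotype. Other normalization, robust moderation and no cross-matching probe sets gave 0 calls, as did the Xist covariate. The paired fit with the replicate block also called 0 probe sets and changed no call in the neonatal comparison. The median difference of the stress genes lay between 0.05 and 0.11 under every alternative. Stress genes higher without overlap numbered 45 after quantile normalization and 53 with array medians subtracted.

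The count of gaps between ages, 146, was 34 with the replicate block, 2757 with array weights, 190 with a dim filter and 127 with a trend. Leaving out 1 array gave 57 (without WT neonate 3 or DN-MCU neonate 1) to 586 (without DN-MCU adult 3).

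Signs turned for a few genes with differences near 0 or a wide spread. With array weights Hk2 was -0.16, Acta2 -0.12, Xist -5.26, Eif2s3y 4.93, Kdm5d 3.34 and Uty 3.11, with quantile normalization Mcu 1453166_at was -0.0043, and with the Xist covariate Hk2 was -0.021. Leaving out 1 array moved Micu2 over -0.62 to 0.46, Nppb over -0.26 to 0.39, Smdt1 over -0.035 to 0.077, Hk2 over -0.041 to 0.17, Atp2a2 over -0.079 to 0.0078, Mcu 1453166_at over -0.087 to 0.15 and Krt14 over -0.94 to 0.025. The mean WT signals of Slc7a3, Fgf21, Chac1 and Cep72 lay below the array medians, among the dimmer probe sets.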

Other observations

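Outside the stress lists, 5 genes were at least 2-fold higher without overlap. Nmrk2, a muscle kinase of the NAD salvage pathway, read 8.62, 8.03 and 8.83 in WT and 9.0, 10.45 and 9.09 in DN-MCU hearts, so that its difference of 1.02 lay mostly in DN-MCU 2. Cep72 read 2.88, 3.07 and 3.05 against 4.03, 4.20 and 3.86, with all 3 DN-MCU hearts raised by a like amount. The WT hearts lay below every neonatal array median, and adult Cep72 means were also dim, at 2.45 in WT and 2.34 in DN-MCU. Clic6, an intracellular chloride channel protein (1.05), and Gm15934 (3.11) were also among them. Of the genes at least 2-fold lower without overlap, Vsnl1 differed most, at 6.27, 7.08 and 5.14 against 4.18, 3.97 and 3.39 (-2.32). Among the others were Adm, the vasodilator peptide adrenomedullin (9.33, 9.24 and 8.79 against 8.13, 8.09 and 7.96), Myl1, a skeletal muscle light chain (-1.02), Bnc1, a zinc finger factor of mesothelium (-1.08), and Igfbp6, a binding protein of insulin-like growth factors (-1.15).

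Small differences of both signs were seen in the proteasome list, with 4 of 26 subunits higher and 2 lower without overlap, from Psmb3 (0.20) to Psmc2 (-0.16). The shares were 15.4% and 7.69%, against 6.32% and 5.77% of all genes. Of 11 neural and Schwann cell markers 3 lay lower (27.3%, against 5.77% of all genes) and 0 higher, Ngfr (-0.47), Prph (-0.19) and Sox10 (-0.16). Igfbp5 and Igfbp3 differed by -0.64 and -0.41 in the list of imprinted and growth factor genes.

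Some large differences rested on probe sets that also split the hearts of 1 genotype. Probe set signals of Bves, a muscle membrane protein, were 7.57, 4.44 and 4.47 in WT and 8.43, 9.60 and 9.51 in DN-MCU hearts on one set, a difference of 3.68, and differed by 0.09 on the other. Gm15934 read 5.07, 2.38 and 2.40 against 5.63, 6.51 and 7.04, with WT 1 near DN-MCU 1. For Tnni3k, a cardiac kinase, one set read 4.68, 4.18 and 8.22 against 7.97, 8.31 and 8.20, and the other differed by 0.21. Ctsk, a lysosomal protease, read 2.67 in DN-MCU 1 and between 6.16 and 7.41 in the other 5 hearts. The CD1 stock is outbred, and sequence differences between hearts were not tested.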
